A study of Mus musculus with 4 samples.

Results

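The BCL2 family genes described here are Mcl1, Bcl2, Bcl2l1, Bcl2l11, Bax, Bid, Bad, Bik and Pmaip1. These 9 genes were picked by name for their place in the mitochondrial death pathway, with earlier results of these data known. All probe sets annotated with 1 of these symbols were taken, which gave 29 of 45101 probe sets for 8 of the 9 genes, among 18193 genes in all. No probe set carried the symbol Bax in the annotation used, so this gene has no value here. The cells were bone marrow neutrophils of C57BL/6 mice aged 8 weeks, wild type (miR-125a+/+) or lacking the microRNA (miR-125a-/-). They were enriched with a magnetic bead isolation kit, kept in medium with serum, and taken unstimulated (labelled 0 h) or after 3 h with lipopolysaccharide (LPS), the Gram-negative bacterial component sensed by Toll-like receptor 4. Whether the unstimulated cells also spent 3 h in culture is not settled by the labels. Each of the 4 groups is represented by 1 Affymetrix array, hybridised with a pool of RNA from 3 experiments, so no difference below has a replicate check and no test was run.

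Proteins of the BCL2 family decide whether the outer mitochondrial membrane is opened, which releases cytochrome c and starts the caspases. The survival members (MCL1, BCL2 and BCL-XL, the last encoded by Bcl2l1) hold the pore-forming effectors BAX and BAK in check. The BH3-only members (BIM, encoded by Bcl2l11, BID, BAD, BIK and NOXA, encoded by Pmaip1) bind the survival proteins or trigger the effectors. Neutrophils are short-lived cells that depend on MCL1, a protein with a fast turnover, and BIM is a known driver of their death. The microRNA removed in the knockout is shown first, with the other mature mouse microRNAs that share its seed and could pair with the same target sites; the seed, bases 2 to 8, is in capitals.

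mmu-miR-125a-5p: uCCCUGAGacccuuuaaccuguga

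mmu-miR-125b-5p: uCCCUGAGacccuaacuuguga

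mmu-miR-351-5p: uCCCUGAGgagcccuuugagccug

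In the RefSeq table (GRCm38.p6), 5 mature microRNAs carried this seed, the remaining ones being miR-6367 and miR-6394. The microRNA itself was not measured by these arrays, and Spaca6, its host gene, reached at most a log2 signal of 6.24 over 3 probe sets, under the detection floor given below; no probe set therefore checks which arrays are knockout.

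Values are log2 MAS5 signals as deposited. A floor was put at 6.80, the value that 60% of all signals do not exceed, and dimmer signals were raised to it. Where this happened to one of the arrays compared, the difference can only be given as a minimum, called a bound below. A gene was called higher or lower from a 2-fold difference and is represented by its brightest probe set; levels are not compared between probe sets. Of the 8 genes with a probe set, 7 exceeded the floor on at least 1 array. Bik, a BH3-only gene, did not: its 3 probe sets had log2 signals from 2.39 to 5.48, all under the floor, so it has no measured difference.

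**Figure D1:**
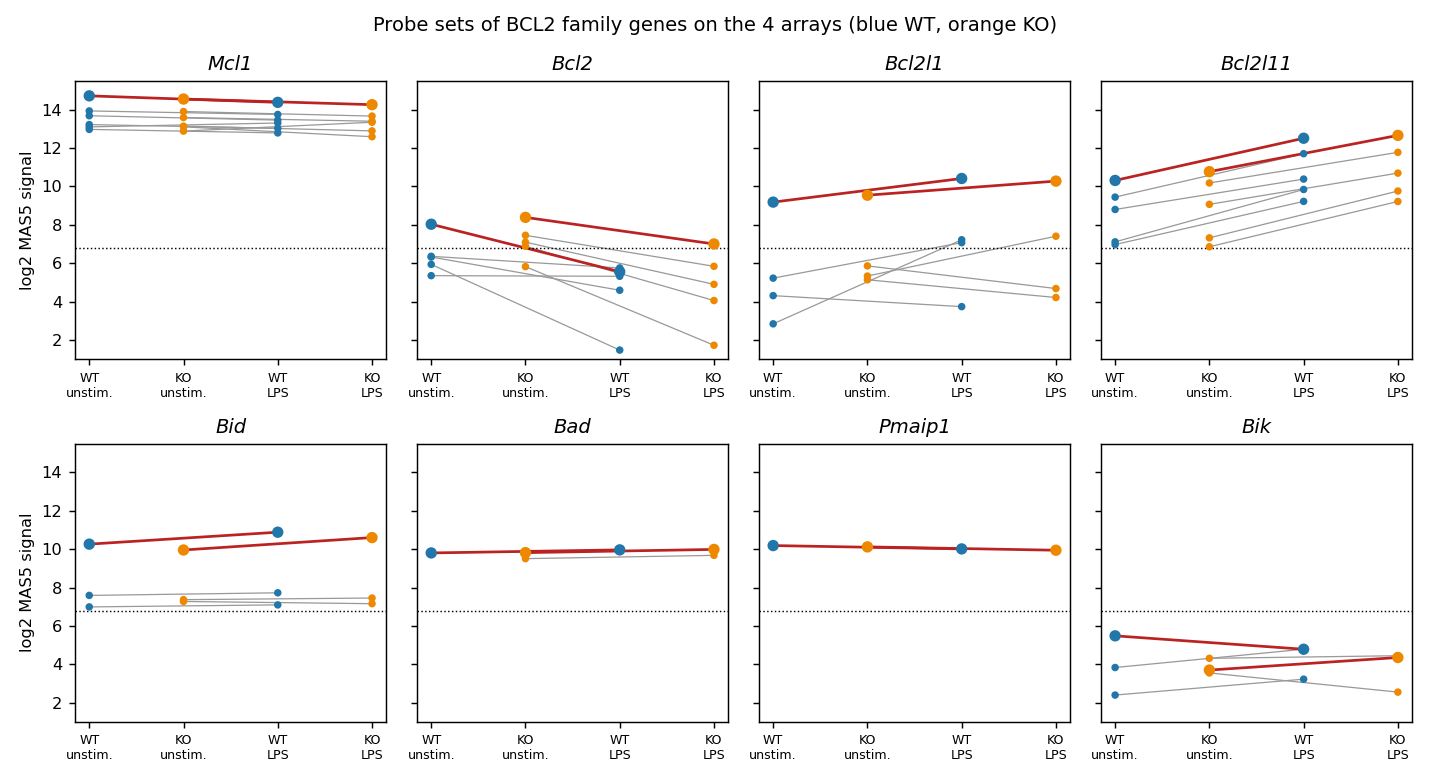
Log2 MAS5 signal of every probe set of the 8 BCL2 family genes on the 4 arrays; each point is 1 probe set on 1 array (blue wild type, orange knockout), lines join the unstimulated and LPS arrays of a genotype, red lines mark the brightest probe set and the dotted line is the floor at 6.80. The 5 Bcl2l11 probe sets lie higher on both LPS arrays, the 6 Mcl1 probe sets stay between 12.6 and 14.7, and Bik lies under the floor.

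Among the survival genes, Mcl1 gave the most even signals. Its brightest probe set (1448503_at) had a log2 signal of 14.73 in unstimulated wild-type cells, 14.56 in unstimulated knockout cells, 14.39 in wild-type cells after LPS and 14.27 in knockout cells after LPS. Both LPS arrays were thus the lower of each pair, by 1.27-fold in wild-type and 1.23-fold in knockout cells, short of a call. The 6 probe sets of Mcl1 did not all point the same way. In 5 of them LPS signals were lower in both genotypes, with differences down to -0.34 in wild-type and -0.52 in knockout cells, whereas 1416881_at was higher, by 0.20 and 0.46. The sign of the small Mcl1 difference therefore depended on the probe set, and all 6 probe sets stayed within 2-fold. After scaling to the spiked-in poly-A control RNAs (the poly-A scale) in place of the deposited scale, the difference of the brightest probe set was -0.90 in both genotypes.

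Bcl2, the founding survival gene, lay near the floor and was lower after LPS. Its brightest probe set (1457687_at) stood at 8.03 in unstimulated wild-type and 8.39 in unstimulated knockout cells, against 5.56 and 7.0 after LPS. The wild-type LPS signal was under the floor, so Bcl2 was at least 2.35-fold lower there, and it was 2.62-fold lower in knockout cells. In knockout cells 337 of 9578 measured genes had a lower difference; in wild-type cells the bound gives no rank. Of the other 4 probe sets, 3 passed the floor on the unstimulated knockout array alone. Their bounds for the LPS difference, -0.66, -0.30 and -0.08, could thus only be negative. The last, 1437122_at, never passed the floor. The call on Bcl2 thus rests on 1 probe set. T and NK cell markers, whose cells also express Bcl2, had 0 of 4 genes with a probe set above the floor, with summed signals of 118 to 153 over the 4 arrays. Among B cell markers 3 of 7 passed the floor on some array, with summed signals of 753 unstimulated and 611 after LPS in wild-type cells and of 690 and 658 in knockout cells. Ms4a1, Pax5, Cd79a and Ebf1 stayed under the floor. The sums of both lists include signals under the floor as deposited, so their differences are not measured ones. None of the measured B cell markers was called after LPS. Cd79b, above the floor on all 4 arrays, had -0.02 in wild-type and 0.14 in knockout cells. On a pooled array, fewer cells of a type and less RNA per cell cannot be told apart.

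Bcl2l1, which encodes BCL-XL, was higher after LPS. Its probe set 1420888_at had log2 signals of 9.18 in wild-type and 9.55 in knockout cells before LPS, and of 10.42 and 10.28 after it. Both LPS signals lay above both unstimulated signals. The difference was 2.35-fold in wild-type cells, which is a call, and 1.66-fold in knockout cells, which is not. The difference between the genotypes in this response was -0.50 on the log2 scale and was not tested. In the mean over probe sets it was 0.03, but that mean took 3 probe sets in wild-type and 2 in knockout cells. A second probe set, 1426191_a_at, was under the floor unstimulated (2.84 and 5.33) and reached 7.22 and 7.41 after LPS, giving bounds of 0.42 and 0.61. Another, 1420887_a_at, passed the floor on the wild-type LPS array alone (7.07, bound 0.27), and 1426050_at never passed it. The LPS bounds of 1426191_a_at and 1420887_a_at come from LPS arrays alone, so they could only be positive. The wild-type difference was 0.64 in the mean over probe sets and 0.67 on the poly-A scale, so the call ended under both. The knockout difference was 0.67 in the mean over probe sets and only 0.12 on the poly-A scale.

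Of the BH3-only genes, Bcl2l11 (BIM) differed most. Its brightest probe set (1456005_a_at) rose from a log2 signal of 10.32 to 12.52 in wild-type cells and from 10.77 to 12.67 in knockout cells. Both LPS arrays were far above both unstimulated arrays, 4.60-fold in wild-type and 3.71-fold in knockout cells. All 5 probe sets of the gene passed the floor on all 4 arrays and were called higher in both genotypes, with log2 differences from 1.58 to 2.73 in wild-type and from 1.60 to 2.44 in knockout cells. Only 158 of 9507 measured genes had a higher difference in wild-type and 214 of 9578 in knockout cells. On the poly-A scale the differences of the brightest probe set were 1.64 and 1.28, still above 2-fold.

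Bid, the BH3-only protein that caspase-8 cleaves to link death receptors to mitochondria, was somewhat higher after LPS in its brightest probe set. 1417045_at stood at 10.26 and 9.96 in unstimulated wild-type and knockout cells, and at 10.89 and 10.61 after LPS, differences of 1.54-fold and 1.57-fold that are not calls. The other 2 probe sets had differences of 0.14 and 0.11 in wild-type and of 0.08 and -0.12 in knockout cells, and on the poly-A scale the brightest one had 0.06 and 0.04.

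Bad, whose protein is held inactive by 14-3-3 proteins when survival kinases phosphorylate it, barely differed: 1416582_a_at read 9.80 in wild-type and 9.82 in knockout cells before LPS, and 9.96 and 9.99 after it. The LPS difference was 0.16 and 0.17, and turned to -0.40 and -0.44 on the poly-A scale. Pmaip1 (NOXA, which binds MCL1) had 1 probe set, 1418203_at, at 10.19 and 10.12 unstimulated and 10.01 and 9.95 after LPS. Its 4 signals spanned a narrow range, and its LPS difference of -0.17 in both genotypes became 0.07 in wild-type cells when the arrays were scaled to a common median.

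**Figure D2:**
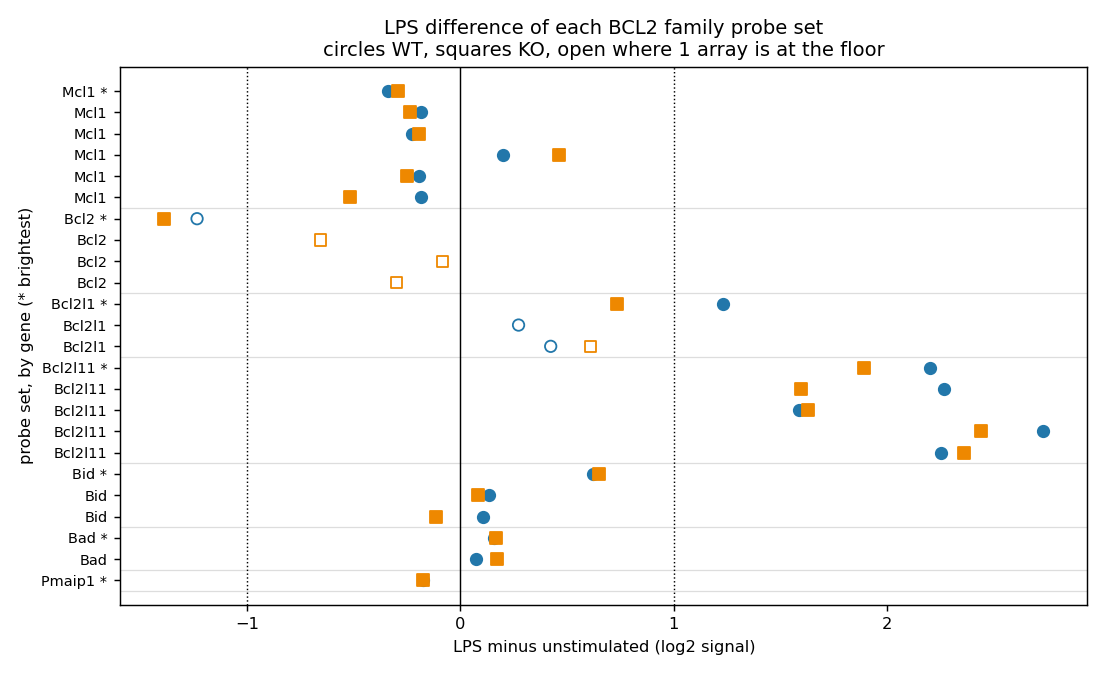
LPS minus unstimulated log2 signal of each BCL2 family probe set above the floor on at least 1 array of the pair, by gene (* brightest probe set). Circles are wild-type, squares knockout cells and dotted lines mark 2-fold. Open symbols are bounds, and the true difference may lie further from 0 on the same side. All 5 Bcl2l11 probe sets lie at 1.58 or beyond in wild-type cells, while 5 of the 6 Mcl1 probe sets lie slightly below 0 and 1 above it.

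In all, 2 of the 7 measured family genes were called higher after LPS in wild-type cells (Bcl2l1 and Bcl2l11), where 7.29% of 9507 genes were called higher, and 1 was called lower (Bcl2), where 9.69% were. In knockout cells 1 of 7 was called higher (Bcl2l11; background 6.62% of 9578 genes) and 1 lower (Bcl2; background 7.99%). The median log2 difference of the 7 genes was 0.16 in wild-type and 0.17 in knockout cells, against -0.03 and -0.05 for all measured genes. With 7 genes, these counts do not set the family apart from other genes. Within it, survival genes went both ways (Bcl2 lower, Bcl2l1 higher, Mcl1 within 2-fold), and among the 4 measured BH3-only genes Bcl2l11 was called and Bid, Bad and Pmaip1 were not.

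The genotype comparison asks what the loss of miR-125a does to these genes. No measured family gene was called between knockout and wild-type cells, either unstimulated (0 of 7; background 0.351% of 9401 genes higher and 0.66% lower) or after LPS (0 of 7; 0.615% of 9262 higher and 0.626% lower). The highest unstimulated difference was that of Bcl2l11, 1.37-fold higher in knockout cells. Its 5 probe sets ranged from -0.12 to 0.74 unstimulated and from -0.08 to 0.31 after LPS, so they disagreed in sign. Bcl2 was 1.28-fold higher in unstimulated knockout cells. A further 3 probe sets passed the floor there and not on the unstimulated wild-type array, with bounds of 0.66, 0.30 and 0.08. These 3 were measured through the knockout array alone, so their sign was fixed in advance and adds no support. In knockout and wild-type cells, 1422938_at read 7.45 and 5.35, 1440770_at 7.10 and 6.32, and 1443837_x_at 6.88 and 6.36. All 3 wild-type signals were under the floor, so the size of these gaps was not measured. After LPS Bcl2 was above the floor in knockout cells alone, a bound of 0.20; with the floor lowered to the 50th percentile this difference was 1.06, a call.

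Bid was lower in knockout cells in its brightest probe set, by -0.31 unstimulated and -0.28 after LPS, but its probe set 1448560_at had 0.28 and 0.06. Mcl1 had differences of -0.17 and -0.12, Pmaip1 of -0.07 and -0.07, and Bad of 0.01 and 0.02. Bcl2l1 was 0.36 higher unstimulated and -0.14 after LPS in 1420888_at, whereas 1426191_a_at, above the floor on both LPS arrays, had 0.19 after LPS. As a measure of how far arrays of the 2 genotypes differed in general, the central 95% of genes above the floor on both arrays lay between -0.61 and 0.59 unstimulated and between -0.62 and 0.68 after LPS. Unstimulated, all 7 family genes fell inside the range; after LPS the 6 genes other than Bcl2 did, and Bcl2, known there only as a bound, cannot be placed. The differences between the LPS responses of the genotypes ranged from -0.50 (Bcl2l1) through -0.31 (Bcl2l11) and -0.15 (Bcl2) to 0.05 (Mcl1), with none called. The Bcl2 value is only a lower limit, since its wild-type response is a bound. It was 0.70 under the 50th percentile floor, so its sign is not settled. The mean over probe sets gave 0.63, but took 1 Bcl2 probe set in wild-type and 4 in knockout cells. It is therefore no like-for-like difference. For comparison, over all 9220 genes 1.27% were called higher and 0.9% lower. The LPS and genotype comparisons share arrays and are not independent.

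**Figure D3:**
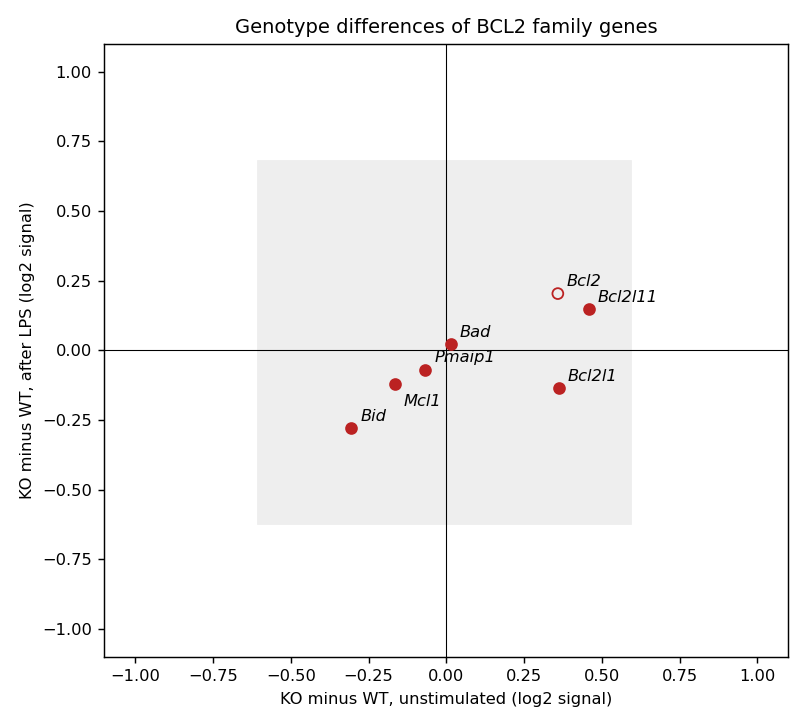
Knockout minus wild-type log2 signal of the 7 measured BCL2 family genes, unstimulated (x axis) against after LPS (y axis), 1 point per gene from its brightest probe set. The open symbol is a lower bound. The grey box spans, on each axis, the central 95% of genes above the floor on both arrays compared. Bcl2 after LPS is plotted at its bound of 0.20 and its true position may lie higher, outside the box; the other 6 genes lie inside it.

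Related genes were read from lists of the wider pathway, 68 genes in 10 lists, of which 60 had a probe set of their own and 53 exceeded the floor. After LPS, 4 of these 53 were called higher and 2 lower in wild-type cells, and 3 higher and 2 lower in knockout cells. These shares were near or below those of all genes (7.29% higher and 9.69% lower in wild-type, 6.62% and 7.99% in knockout cells), so the counts are no result about the lists. Closest to the family are the further BH3-only and BNIP genes, with 2 of 3 measured genes higher in wild-type and 1 of 3 in knockout cells. Bmf, a BH3-only gene, stood at 6.37 and 6.40 unstimulated, under the floor, and at 9.17 and 8.58 after LPS, at least 5.19-fold higher in wild-type and at least 3.43-fold higher in knockout cells. Another of its probe sets gave bounds of 1.18 and 1.21, and the last passed the floor on 1 array. All Bmf probe sets passed the floor on LPS arrays alone, so their bounds could only be positive. The Bmf call was kept under 5 of 6 alternatives in wild-type and 5 of 7 in knockout cells, with values as small as 0.63 and 0.03. Here and below, only alternatives for scaling, floor and probe set are counted, and only where the gene had a value. Without _s_at, _x_at and _a_at probe sets, Bmf in wild-type cells, Trib3 and Mdm2 had no value. Bbc3, which encodes PUMA, a BH3-only protein best known as a p53 target, went from 8.07 to 9.35 in wild-type and from 8.34 to 8.78 in knockout cells. Its differences of 1.27 and 0.44 became 0.71 and -0.17 on the poly-A scale, so the direction in knockout cells flips with the scaling.

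Bak1, the effector that acts beside BAX and a reported target of the miR-125 family, read 9.60 and 9.40 unstimulated and 9.43 and 9.28 after LPS. Its knockout minus wild-type differences were -0.20 and -0.15, and the second effector-like gene, Bok, stayed under the floor. Bcl2l2, another survival gene, had LPS differences of -0.46 and -0.33. Neither Bak1 nor Bcl2l2 was called in any of the 4 comparisons. Of the other BCL2 homologues, Bcl2l13 and Bcl2l12 passed the floor and neither was called, Bcl2l13 having 0.92 in wild-type and 0.41 in knockout cells after LPS.

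The A1 paralogues, survival genes that NF-kB is known to induce in leukocytes, have no probe set of their own. 1419004_s_at, which lists Bcl2a1d, Bcl2a1b and Bcl2a1a together, had log2 signals of 8.90 in wild-type and 8.45 in knockout cells before LPS and of 14.79 and 14.81 after it. These 2 LPS signals stood 59.3-fold and 82.5-fold above the unstimulated ones. No share of that signal can be given to any one paralogue, and the other 2 probe sets that list A1 paralogues were under the floor on all 4 arrays.

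Downstream of the mitochondria, 11 apoptosome, caspase and released-factor genes had values; none was called higher after LPS. Casp6, an executioner caspase, fell from 9.71 to 6.71 in wild-type and from 9.48 to 7.30 in knockout cells, at least 7.52-fold lower in the former and 4.52-fold lower in the latter. Dffb, the DNase that caspases release from its inhibitor, was called lower in knockout cells at -1.57, a call kept under 5 of 7 alternatives with values as small as -0.15, and had -0.26 in wild-type cells. The inhibitor itself, Dffa, was the 1 listed gene called between genotypes, 8.98 in knockout against 10.05 in wild-type cells after LPS (-1.08), a call kept under 6 of 7 alternatives for scaling, floor and probe set. Apaf1, the scaffold of the apoptosome, had -0.36 and -0.24, and Cycs, cytochrome c, had 0.18 in wild-type cells and a difference near 0 in knockout cells.

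Among the 5 inhibitor of apoptosis genes Birc3, an NF-kB-induced ubiquitin ligase, was called higher in both genotypes: from 12.08 to 13.85 in wild-type and from 11.92 to 13.75 in knockout cells, with a second probe set at 2.57, a bound, and 2.41. The remaining 4, Xiap, Birc2, Birc5 and Birc6, were not called. None of the 5 measured genes for turnover of the MCL1 protein was called; Gsk3a, a kinase, had 0.12 and 0.11, Huwe1, a ubiquitin ligase of MCL1, had -0.55 and -0.45, and Usp9x, the deubiquitinase that stabilises it, 0.07 and 0.44. The list of regulators of BCL2 family transcription held 1 gene called higher in both genotypes, Trib3, a stress-induced pseudokinase, at 2.27 and 1.89. Its partner probe set gave bounds of 1.91 and 1.86, which come from LPS arrays alone and could only be positive. The Trib3 call was kept under 5 of 6 alternatives in each genotype, with values as small as 0.69 in wild-type and 0.68 in knockout cells. Mdm2, the ubiquitin ligase of p53, was called lower in wild-type cells at -1.02 and had -0.64 in knockout cells. Its wild-type call was kept under 4 of 6 alternatives, and on the poly-A scale it was called in both genotypes, at -1.58 and -1.25. Foxo3, a transcription factor known to induce Bcl2l11, had 0.54 and 0.40. None of the 9 mitochondrial partner genes was called, with Ywhaz, a 14-3-3 protein gene, at 0.21 and 0.11. None of the 9 survival cytokine signalling genes was called either, with Csf2rb, the common receptor chain for GM-CSF, at -0.03 and -0.14, and Csf3r, the G-CSF receptor, at 0.78 and 0.31.

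**Figure D4:**
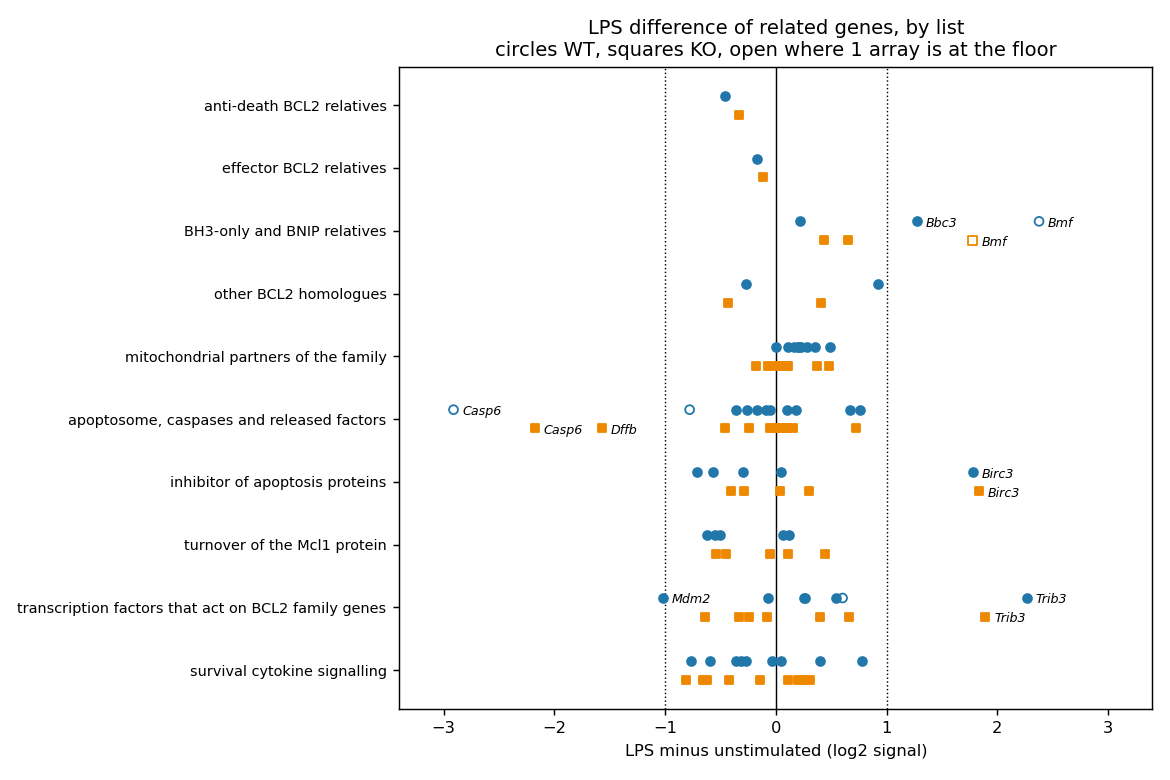
LPS minus unstimulated log2 signal of the genes in the 10 lists of related genes, 1 point per gene and genotype from its brightest probe set; circles are wild-type, squares knockout cells, open symbols lower bounds, dotted lines mark 2-fold and genes beyond it are named. Bmf, Birc3 and Trib3 lie to the right and Casp6 to the left in both genotypes.

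Promoter windows of the members were taken from RefSeq (GRCm38.p6), leaving out windows on a chromosome that was not used. This kept 11 windows for 7 of the 9 genes, so a gene without a window here may still have one in RefSeq. The 250 bases before each annotated start were searched on both strands for 6 motifs. These were the FOXO motif GTAAACA, the NF-kB motif GGGANTTCC, the AP-1 motif TGANTCA, the STAT motif TTCNNNGAA, the E-box CACGTG and the cyclic AMP response element TGACGTCA. Of the 11 windows 3 held a match. The window of each of the 2 genes called higher after LPS that holds a match is printed with the match in capitals, followed by the Bcl2 window, the gene called lower, which holds none.

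Bcl2l11, chr2:128125788-128126037, plus strand: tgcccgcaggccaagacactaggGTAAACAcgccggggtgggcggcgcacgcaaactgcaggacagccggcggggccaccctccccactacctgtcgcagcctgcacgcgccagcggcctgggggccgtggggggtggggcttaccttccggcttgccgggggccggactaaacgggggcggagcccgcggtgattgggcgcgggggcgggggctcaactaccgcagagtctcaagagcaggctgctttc

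Bcl2l1, chr2:152830718-152830967, minus strand: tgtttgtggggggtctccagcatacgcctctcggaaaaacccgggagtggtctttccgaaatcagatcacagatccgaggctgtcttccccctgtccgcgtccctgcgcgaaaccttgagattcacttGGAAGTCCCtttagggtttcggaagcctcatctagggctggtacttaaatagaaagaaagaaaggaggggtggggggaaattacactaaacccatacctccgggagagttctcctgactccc

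Bcl2, chr1:106714291-106714540, minus strand: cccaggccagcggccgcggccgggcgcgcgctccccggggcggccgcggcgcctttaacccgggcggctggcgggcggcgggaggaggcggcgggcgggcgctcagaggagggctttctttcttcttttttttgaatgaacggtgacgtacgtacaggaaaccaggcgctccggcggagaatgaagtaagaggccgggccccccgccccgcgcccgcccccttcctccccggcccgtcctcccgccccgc

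The Bcl2l11 window, at the first of its 2 listed starts, holds a FOXO match from 227 to 221 bases before the start. Of all 32851 windows of this length, 3.17% hold one. The Bcl2l1 window, at the second of its 3 listed starts, holds the NF-kB motif on the opposite strand from 122 to 114 bases before the start. This motif is held by 1.43% of windows. At the other listed starts of Bcl2l11 and Bcl2l1 the windows hold no match, like that of Bcl2. The remaining match was an E-box before the start of Bax (6.02% of windows). The AP-1, STAT and cyclic AMP motifs, held by 6.75%, 7.02% and 1.55% of windows, were not found in the 11 windows. A match is only a description of these letters and is no evidence of binding.

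The arrays and the purity of the cells bear on every value above. Between 37.8% and 41.5% of probe sets exceeded the floor, and the 3' minus 5' log2 signal of the actin control lay between 0.16 and 0.23 on the 4 arrays. Of 10 neutrophil markers the 9 that had a probe set passed the floor on every array, with summed signals from 262214 to 323746. After LPS 0 of 9 were called in wild-type cells and 1 was called lower in knockout cells, Cxcr2, at -1.11 against -0.62 in wild-type cells; Mmp8 had -0.60 in wild-type and -0.79 in knockout cells, and S100a8 had 0.17 and 0.36. Monocyte and macrophage markers moved with LPS, 4 of 6 called higher and 2 lower in each genotype, their summed signal going from 23244 to 45413 in wild-type and from 23267 to 42778 in knockout cells, with Mrc1 under the floor. Of the erythroid markers 1 of 3 was called lower after LPS in wild-type and 3 of 4 in knockout cells, with summed signals of 989 and 222, and of 1792 and 282, with Hba-a1 and Alas2 under the floor. The LPS differences of Klf1, Car1 and Slc4a1 are bounds in both genotypes, as their LPS signals were under the floor. These counts therefore cannot be compared between genotypes. All summed marker signals include deposited values under the floor. Unstimulated, the 4 measured erythroid markers had a median of 0.67 for knockout minus wild type, and Car1 was called higher in knockout cells, at 1.05. Of the eosinophil, basophil and mast cell markers 4 of 6 were called lower in knockout than in wild-type cells unstimulated and 2 of 5 after LPS, with summed signals of 1950 against 4318 and of 1611 against 3713, with Fcer1a under the floor. Plasma cell markers had 0 of 5 called in each LPS comparison, with summed signals of 36581 to 45899. The part of these cells in the differences of the BCL2 family genes was not tested.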

How the data were processed

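RNA from bone marrow neutrophils was measured on 4 Affymetrix arrays, 1 per group of genotype and LPS, each from a pool of 3 experiments. The authors deposited 1 log2 signal for each probe set. The submitters' processing notes name MAS5 as the method, without a version or target value. On the linear scale each array had a trimmed mean of 500.003 or 500.004 (2% removed at each end), so the arrays share a scale that would hide a change common to most genes. MAS5 subtracts background on each array, so dim probe sets scatter widely, and 298 to 428 values on each array are exactly 0.

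Gene symbols came from GEO's platform annotation, which can be old: 34945 non-control probe sets had 1 symbol, 932 had several and 9211 had none. The floor (60th percentile, signal 111), the 2-fold rule and the brightest probe set per gene were used throughout, in Python 3.11.15 with pandas 2.3.3. Differences are log2 signals subtracted, LPS minus unstimulated or knockout minus wild type. The calling step was tested on simulated data, with changes well beyond 2-fold in genes far above the floor. That setting does not cover calls close to 2-fold or close to the floor. With 1 array a group no p-value or standard deviation exists, and precision is limited by having only 4 arrays. Alternatives were 3 scalings, 2 floors, 2 probe set rules and a 1.5-fold call. The members and lists were chosen with earlier results of these data known. Related genes were named if called in any comparison; otherwise the gene with the highest mean signal of a list was named, as a rule of choice only. Further genes (Apaf1, Cycs, Bcl2l12, Bok, Csf3r, Foxo3, Huwe1, Usp9x and the uncalled Birc and Xiap genes) and the promoter motifs were chosen after the values were seen.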

Additional observations from a re-analysis of the deposited data

Results flagged for a closer look

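Bcl2l1 was singled out because its genotype difference ran one way in unstimulated cells and the other way after LPS: the log2 signal was 0.36 higher in knockout than in wild-type cells unstimulated and -0.14 after LPS. A second probe set, 1426191_a_at, had 0.19 after LPS, the opposite sign. With 1 array a group the difference was not tested. Both values of the first probe set lie inside the central 95% of genes above the floor on both arrays compared.

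The shared A1 probe set 1419004_s_at was singled out because it lies outside the gene comparisons, as it lists 3 paralogues, and still showed a large signal: 5.89 in wild-type and 6.37 in knockout cells for LPS minus unstimulated on the log2 scale.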

How the results depend on the processing

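Bcl2l11 stayed called higher in both genotypes under all 8 alternatives. Fewer family genes were called higher in wild-type cells (1, against 2) on the poly-A scale and in the mean over probe sets. The count called lower went from 1 to 0 in both genotypes with the floor at the 75th percentile, above the Bcl2 signals, and in knockout cells also in the mean over probe sets, where Bcl2 stood at -0.61. With a 1.5-fold call 3 genes were higher in knockout cells, Bcl2l1 and Bid being added, and 3 in wild-type cells, Bid being added. With the floor at the 50th percentile 1 gene, Bcl2, was called higher in knockout cells after LPS. No other count of family genes moved, and no difference between the LPS responses was called.

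Uncalled differences changed sign as follows, and the cause was not tested. Bad after LPS stood at -0.40 in wild-type and -0.44 in knockout cells on the poly-A scale. Bad between genotypes stood at -0.15 unstimulated and -0.09 after LPS in the mean over probe sets, at -0.31 and -0.21 without shared (_s_at, _x_at, _a_at) probe sets, and at -0.13 after LPS under median scaling. Bcl2l11 between genotypes after LPS was -0.0046 under median scaling. Pmaip1 after LPS was 0.07 in wild-type cells under median scaling, and its unstimulated genotype difference 0.02 on the poly-A scale. Differences between the LPS responses also changed sign in all measured family genes but Bcl2l11. Bcl2 went to 0.70 (50th percentile floor) and 0.63 (mean over probe sets), Bcl2l1 to 0.03 (mean over probe sets), and Mcl1, Bid and Bad to -0.10, -0.12 and -0.13 (median scaling), while smaller turns lay nearer 0, that of Pmaip1 at 0.00068 (quantile). For Bcl2 and Bcl2l1 the mean over probe sets took different probe sets in the genotypes, so those values are not like for like.

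Scaling moved the all-gene median after LPS by 0.10 (quantile), 0.23 (median) and -0.51 (poly-A) in wild-type cells and by 0.06, 0.10 and -0.56 in knockout cells. All-gene calls in wild-type cells, 693 higher and 921 lower, became 835 and 707, 1030 and 620, and 340 and 2389; those in knockout cells, 634 and 765, became 735 and 633, 737 and 626, and 314 and 2574. Between genotypes after LPS, 57 and 58 became 47 and 76, 37 and 108, and 54 and 43; unstimulated, 33 and 62 became 37 and 57, 32 and 64, and 69 and 56 (quantile, median and poly-A in each case). No paired analysis was possible because each group has 1 array, and leaving out an array would empty its group.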
